A study of Mus musculus with 18 samples.

Results

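H19 is an imprinted long noncoding RNA gene, and its level is described here in 18 RNA sequencing libraries of mouse testis germ cells. It was taken by its symbol from a table of 13218 loci, where it holds 1 row, so 1 locus of 13218 is described. The libraries came from ICR mice, and the cells were sorted by STA-PUT, a sedimentation method that parts cells by size, per the labels' protocols. There are 3 libraries for each of 6 type labels. These are priSG-A and priSG-B at postnatal days 6 and 9, plpSC and pacSC at days 14 and 21, and rST and elST at days 35 and 56. The letters SG, SC and ST, not spelled out in the labels, are the field's short forms of spermatogonia, spermatocytes and spermatids. No treatment or allele is named in the labels, and nothing says whether the 3 libraries of a type came from separate animals. The p-values thus reflect the scatter among libraries, which may be technical.

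H19 is transcribed from the maternal chromosome and silent on the paternal one in the body's tissues. The choice is made by a control region between H19 and its neighbour Igf2, a fetal growth factor gene, which is methylated on the paternal copy and bound by the insulator protein CTCF on the maternal copy. In the male germ line the old imprint is erased and the paternal methylation is set before birth, in cells that later become spermatogonia. H19 RNA is abundant in the embryo and falls in most tissues after birth. The table gives a summed level per gene and no allele, so it does not show from which chromosome the RNA came.

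The locus lies on chromosome 7 of mm10, from 142575529 to 142578143 on the minus strand, and is a lincRNA in GENCODE M21 (a long intergenic noncoding RNA), with 7 annotated transcripts of 761 to 2286 bases. The longest has 5 exons, and its first exon carries the hairpin of the microRNA miR-675. In the direction of transcription the hairpin covers bases 997 to 1080 of this transcript (chromosome 7, 142577064 to 142577147). Its sequences are shown because they are the part of H19 RNA with a known processed product. The mature microRNA was not measured in these libraries. The first line is the hairpin with both mature arms in capitals, and the next lines are the mature microRNAs with the seed (bases 2 to 8, the part that pairs with targets) in capitals, all from RefSeq on GRCm38.p6.
Mir675 hairpin: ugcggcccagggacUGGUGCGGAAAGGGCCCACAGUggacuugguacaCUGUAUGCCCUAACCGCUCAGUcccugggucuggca
mmu-miR-675-5p: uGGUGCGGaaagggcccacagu
mmu-miR-675-3p: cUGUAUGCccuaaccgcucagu
The seeds of the arms differ. Of the 7 transcripts, 3 carry the hairpin in an exon, those of 2286, 1521 and 761 bases. The FPKM of H19 does not tell the transcripts apart. A pair of short genes annotated as misc_RNA, Gm27483 and Gm27786, lie inside H19 on the other strand, and their reads may be counted with H19 where strand is not kept.

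**Figure D1:**
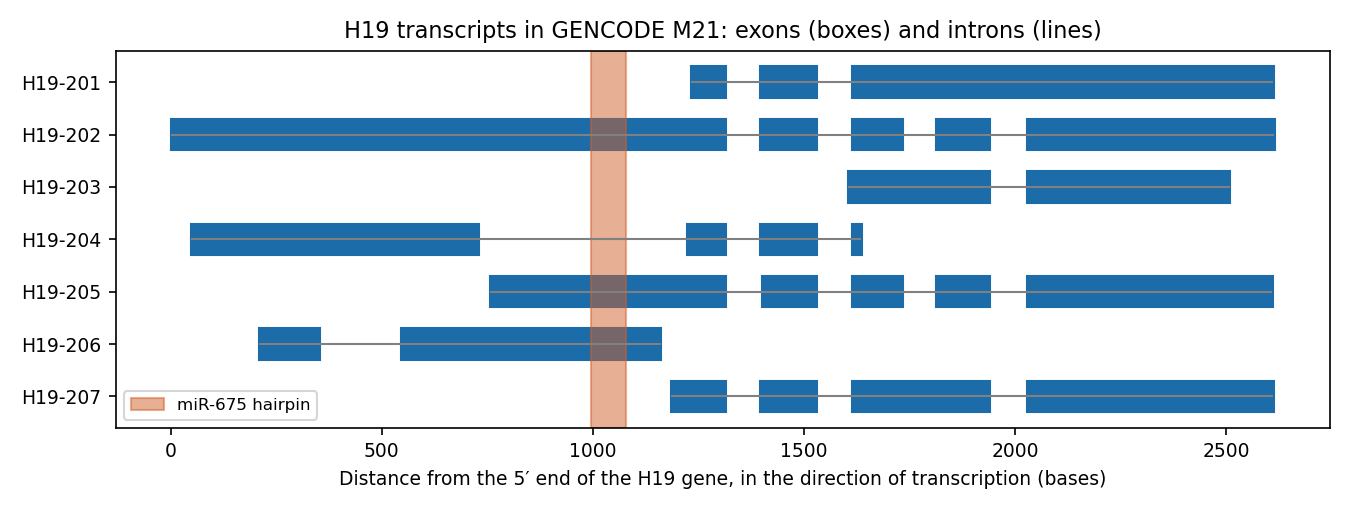
Annotated H19 transcripts, drawn to scale by distance in bases from the 5′ end of the gene, with exons as boxes and introns as lines. The miR-675 hairpin (shaded) lies in exons of 3 of the 7 transcripts, those of 2286, 1521 and 761 bases.

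Levels are in FPKM, a count of fragments divided by transcript length and by the size of the library. The table holds no read totals, so depth was inferred from the steps between low values of single-exon genes, which gave 31.6 to 91.9 M fragments in each library (M for mega). The libraries fall into library set I (priSG-B replicates 1 to 3, pacSC replicates 1 and 2, elST replicate 3) and library set II (the other 12). Depth was 65.0 to 91.9 M fragments in set I and 31.6 to 56.7 M fragments in set II, with mean fragment lengths of 233 to 266 bases and 200 to 212 bases. The labels name no batch. For 13 of the 18 libraries the nearest profile, by Pearson's r across loci, belonged to another type. The 5 libraries called here those that stand apart are replicate 3 of priSG-A, plpSC and pacSC, and replicate 1 of rST and elST. The nearest profile alone does not single them out. These 5 were named with values of these data known, among them those of a locus linked to spermatids, described after the H19 levels. That locus is higher in replicate 3 of priSG-A, plpSC and pacSC than in the other libraries of the same label. It is lower in replicate 1 of rST and elST, and it is thus no separate observation on these 5 libraries.

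H19 was detected in all 18 libraries and its level spanned an 817-fold range, from 0.286 to 234 FPKM. In priSG-A it stood at 234, 82.4 and 1.45 FPKM in replicates 1, 2 and 3. The first of these is the highest value of the series, and the third lies with the low libraries of other types. In priSG-B it stood at 33.7, 32.7 and 34.8 FPKM, the narrowest spread of any type, with a ratio of highest to lowest of 1.06. In plpSC it stood at 15.3, 29.6 and 0.562 FPKM, so replicate 3 again lay far below the other libraries of its type.

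In pacSC it stood at 0.450, 0.560 and 0.677 FPKM, and no library of this type reached 1 FPKM. The rST libraries held 6.44, 0.286 and 0.810 FPKM. The elST libraries held 12.4, 0.553 and 0.436 FPKM. In both spermatid labels replicate 1 held the high value. The mean was 106 ± 118 FPKM in priSG-A, 33.7 ± 1.06 in priSG-B, 15.2 ± 14.5 in plpSC, 0.562 ± 0.114 in pacSC, 2.51 ± 3.41 in rST and 4.47 ± 6.89 in elST (SD, n = 3 each). In 4 of the 6 types the SD is close to or above the mean, and priSG-B and pacSC are the exceptions.

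The low values rest on few but not vanishing fragments. Over the length of the longest transcript the lowest value, in rST replicate 2, corresponds to about 29.0 fragments, and over a shorter one of 1217 bases to about 14.1. The highest, in priSG-A replicate 1, corresponds to about 15614 fragments over the longest transcript. A count of 3 fragments would stand at 0.0159 to 0.0454 FPKM there, below every H19 value. These figures assume that all fragments come from 1 transcript and cover counting error only.

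H19 ranked among the highest loci in some libraries and near the middle in others. It ranked 13th of 7171 loci above 0 in priSG-A replicate 1, 27th of 7723 in priSG-A replicate 2 and 68th to 74th in priSG-B. It ranked 118th and 64th in plpSC replicates 1 and 2, 297th in rST replicate 1 and 150th in elST replicate 1. In the other 9 libraries it ranked 1780th of 9374 or lower, and up to 44.2% of the loci above 0 stood higher than H19. On the log2(FPKM + 1) scale its SD over the 18 libraries was 2.45, against a median of 0.78 over the 4117 loci that reached 1 FPKM in 3 or more libraries, and it ranked 174th among them from the largest.

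**Figure D2:**
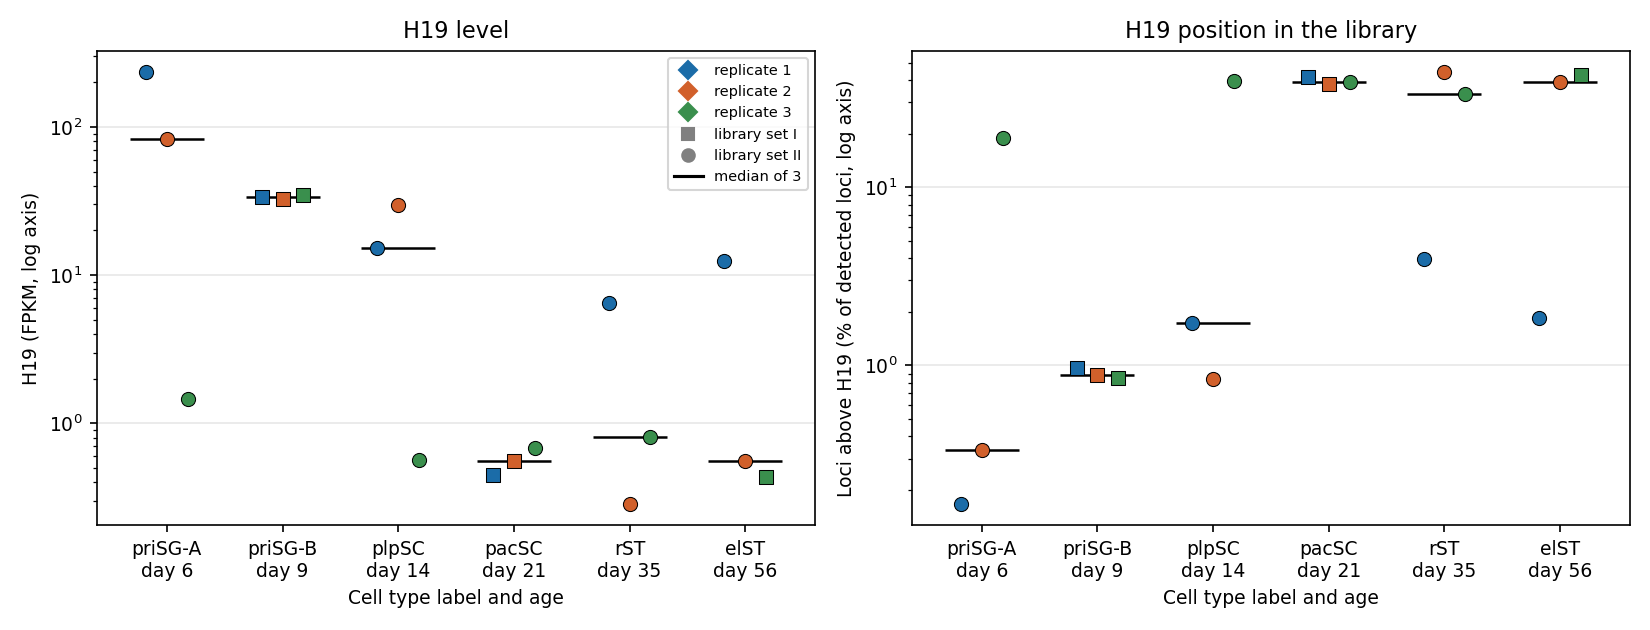
H19 in each library by type label and age, as FPKM on a log axis (left) and as the percent of loci above 0 that stood higher than H19, also on a log axis (right). Colours mark the replicate number, squares and circles mark library sets I and II, and lines mark the median of 3. The 3 priSG-B points lie together at 32.7 to 34.8 FPKM, while replicate 3 of priSG-A and plpSC and replicate 1 of rST and elST lie apart from the rest of their type.

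On the log2(FPKM + 1) scale the widest gap between neighbouring libraries, 1.60 against 1.49 for the next, ran from 1.45 to 6.44 FPKM, with 9 libraries above and 9 below. The noncoding locus 1700027A15Rik was set beside H19 because it overlaps Tnp1 on the other strand. Tnp1 encodes a transition protein that takes the place of histones in spermatid chromatin, and without strand reads of the locus and of Tnp1 cannot be told apart. In the 9 libraries with H19 at 6.44 FPKM or more, 1700027A15Rik stood at 0.570 FPKM or less. In the 9 libraries with H19 at 1.45 FPKM or less, it stood at 11.8 to 4539 FPKM.

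The library labelled priSG-A replicate 3 held 11.8 FPKM of 1700027A15Rik and the library labelled plpSC replicate 3 held 874 FPKM, against at most 0.139 FPKM in replicates 1 and 2 of priSG-A and 0 in those of plpSC. The libraries labelled rST replicate 1 and elST replicate 1 held 0 and 0.570 FPKM, against 4539 and 3175 FPKM in rST replicates 2 and 3 and 875 and 73.0 FPKM in elST replicates 2 and 3. The library labelled pacSC replicate 3 held 1195 FPKM, against 75.8 and 84.9 FPKM in pacSC replicates 1 and 2. These 5 libraries go against the rest of their label at this locus, whose values were known when they were named. In pacSC the split follows library set, with replicate 3 in set II and replicates 1 and 2 in set I. The elST replicates 2 (set II) and 3 (set I) differ in the same direction and were not so named. In H19 pacSC replicate 3 lay near its type, at 0.677 FPKM against 0.450 and 0.560 FPKM. In bulk samples, fewer cells of a type and less RNA per cell cannot be told apart, and the part that the mix of cells plays in the H19 level was not tested.

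**Figure D3:**
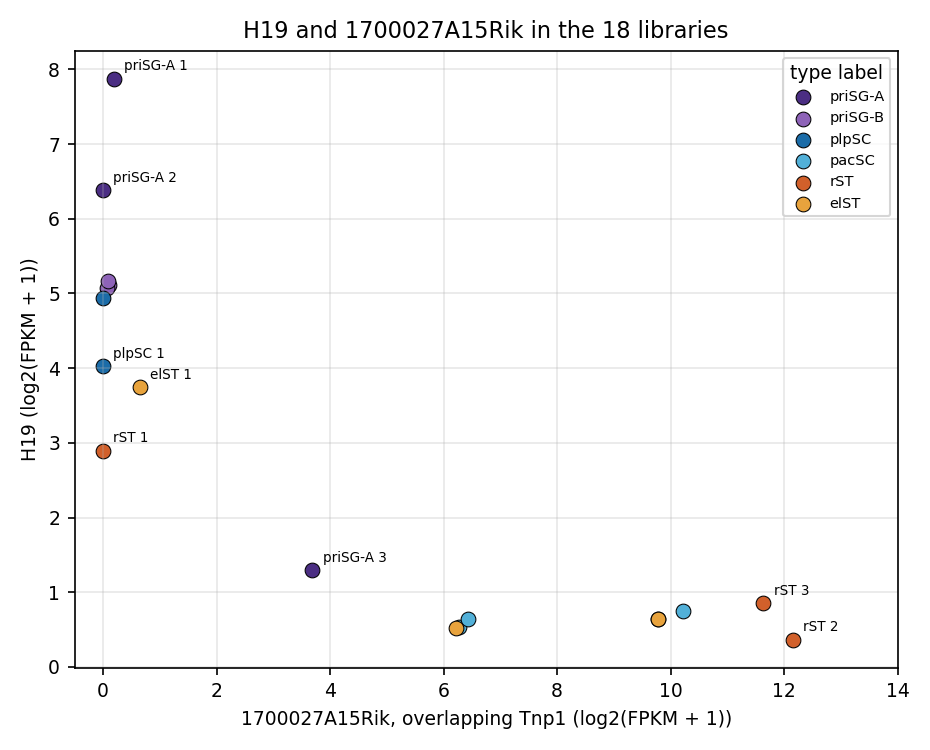
H19 against 1700027A15Rik, the locus overlapping Tnp1, in the 18 libraries, both as log2(FPKM + 1). Points are libraries coloured by type label, and the point of plpSC replicate 3 lies under that of elST replicate 2. No library holds both at a high level: the 9 with H19 at 6.44 FPKM or more hold at most 0.570 FPKM of 1700027A15Rik, and the library labelled priSG-A replicate 3 lies between the arms at 1.45 FPKM of H19 and 11.8 FPKM of 1700027A15Rik.

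By the median of their 3 libraries the types order as priSG-A (82.4 FPKM), priSG-B (33.7), plpSC (15.3), rST (0.810), pacSC (0.560) and elST (0.553). No neighbours in this order passed a test, and all but plpSC and priSG-B overlapped. The exact two-sided permutation p on log2(FPKM + 1) was 1 for priSG-B against priSG-A, 0.1 for plpSC against priSG-B, 0.3 for rST against plpSC, 0.6 for rST against pacSC and 0.9 for elST against pacSC. With 3 against 3 libraries the smallest p such a test can give is 0.1, so no pair of types can pass 0.05 by it. Limma, fitted to all 4117 loci with adjustment over them, called none of these neighbours.

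The first comparison set day 9 priSG-B against day 6 priSG-A. The means of log2(FPKM + 1) were 5.12 ± 0.04 in priSG-B and 5.18 ± 3.45 in priSG-A (SD, n = 3 each), so the means lay close while the SDs lay far apart. The log2 difference was -0.07 ± 1.46 (SE, limma adjusted p = 1), where 0.68% of the 4117 loci were called, and its sign turned with upper-quartile scaling (0.33) and quantile normalization (0.14). Without the 5 libraries that stand apart it was -2.01 (limma adjusted p = 0.0137), where 448 of the 4117 loci were called. Without priSG-A replicate 1 it was 1.28. All priSG-B libraries belong to set I and all priSG-A libraries to set II, so type and library set cannot be told apart here.

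The second comparison set day 14 plpSC against day 9 priSG-B. Every plpSC library stood below every priSG-B library, with 29.6 FPKM as the highest value in plpSC and 32.7 FPKM as the lowest in priSG-B. Such a split in this direction was seen in 10.9% of the 4117 loci. The log2 difference was -1.92 ± 1.46 (SE, limma adjusted p = 0.671), with 1.26% of loci called, and it was -0.64 without plpSC replicate 3. These types too belong to different library sets, so set and type cannot be told apart.

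The third comparison set day 21 pacSC against day 14 plpSC. The highest pacSC value, 0.677 FPKM, lay above the lowest plpSC value, 0.562 FPKM in replicate 3, and below the other plpSC values. The log2 difference was -2.56 ± 1.46 (SE, limma adjusted p = 0.311), and limma called 0% of loci, while 650 loci had an unadjusted p under 0.05. Without the 5 libraries that stand apart the difference was -3.89 (limma adjusted p = 3.11e-05), and 2932 of the 4117 loci were called. That choice of libraries was made with values of these data known, among them those of 1700027A15Rik, which runs opposite to H19 (r = -0.84). It is thus not independent of the outcome. Without plpSC replicate 3 alone, the difference was -3.84 (limma adjusted p = 0.0579). Within library set II, with 1 pacSC library against 3 plpSC libraries, it was -2.46 (limma adjusted p = 0.644).

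The last adjacent comparisons, day 35 rST against day 21 pacSC and day 56 elST against day 35 rST, gave log2 differences of 0.73 ± 1.46 (SE, limma adjusted p = 0.871) and 0.26 ± 1.46 (SE, limma adjusted p = 0.978). In both, limma called 0% of loci, with 372 and 78 loci at an unadjusted p under 0.05. Without rST replicate 1 the first difference was -0.032, and without elST replicate 1 the second was -0.79. Within library set II the differences were 0.63 with 1 pacSC library and 0.82, and neither was called.

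Among all 15 pairs of types, with all libraries, H19 was called by limma in 1, pacSC against priSG-B, where 21.5% of loci were called. H19 stood at 0.450, 0.560 and 0.677 FPKM in pacSC, against 33.7, 32.7 and 34.8 FPKM in priSG-B, without overlap. The log2 difference was -4.48 ± 1.46 (SE, limma adjusted p = 0.0486), and 22.2% of loci split in the same direction. In each fit that left out 1 of the 6 libraries the call was lost, with limma adjusted p from 0.0756 to 0.118, while the difference stayed between -4.53 and -4.42. Here library set I holds both types, with priSG-B replicates 1 to 3 and pacSC replicates 1 and 2, whose values do not overlap either. The libraries of 5 of the 15 pairs did not overlap, each with H19 lower in the later type, and no exact permutation p can pass at this size. Besides plpSC and pacSC against priSG-B these were pacSC against priSG-A (-4.54, limma adjusted p = 0.140, 0% of loci called), where 18.3% of loci split in this way. They were also rST against priSG-B (-3.75, limma adjusted p = 0.146, 2.5% called), where 16.1% split so, and elST against priSG-B (-3.48, limma adjusted p = 0.234, 1.09% called), where 11% did. Without rST replicate 1 alone, limma called H19 in rST against priSG-A (-4.57, adjusted p = 0.0457) and in rST against priSG-B (-4.51, adjusted p = 0.0380), with 1351 and 1807 of the 4117 loci called. Without the 5 libraries that stand apart it called H19 in 10 of the 15 pairs. Besides priSG-B against priSG-A these were pacSC, rST and elST, each against priSG-A, priSG-B and plpSC, with differences of -6.55 to -3.87 and limma adjusted p of 8.07e-07 to 3.11e-05. In those pairs of pacSC, rST and elST 2925 to 3302 of the 4117 loci were called, so most loci were called along with H19. In priSG-B against priSG-A 448 loci were called. The limma F test over the 6 types did not call H19 (F = 3.62, adjusted p = 0.294), where 0.68% of loci were called.

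Pooling the types by the letters of their labels gave 6 against 6 libraries, at which an exact test can pass 0.05. Each class holds 2 types, and the pooled tests shuffle single libraries across them. Their p-values thus do not measure the spread between types, and a test of 2 types against 2 could not pass. H19 was lower in the SC libraries (plpSC and pacSC) than in the SG libraries (priSG-A and priSG-B). The means of log2(FPKM + 1) were 1.92 ± 2.01 in SC and 5.15 ± 2.18 in SG (SD, n = 6 each), and the medians were 0.619 FPKM in SC and 34.3 FPKM in SG. The difference was -3.23 (exact permutation test, two-sided, p = 0.0152, adjusted over the 3 pooled comparisons 0.0227). All 6 SG libraries and 2 of the 6 SC libraries reached 1 FPKM.

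H19 was also lower in the ST libraries (rST and elST) than in the SG libraries. The mean of log2(FPKM + 1) was 1.50 ± 1.44 in ST and 5.15 ± 2.18 in SG, with medians of 0.681 FPKM in ST and 34.3 FPKM in SG. The difference was -3.65 (exact permutation test, p = 0.0130, adjusted 0.0227). Between ST and SC it was -0.42 (exact permutation test, p = 0.600), which does not show that the classes share a level. Of the ST libraries 2 of 6 reached 1 FPKM, as in SC.

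Limma, which adjusts over all 4117 loci, did not call H19 in these contrasts without a replicate block. It gave -3.23 ± 1.03 (SE, adjusted p = 0.133) for SC against SG, with 0.364% of loci called, and -3.65 ± 1.03 (SE, adjusted p = 0.0997) for ST against SG, with 0.51% called. With the replicate number as a block limma called ST against SG (-3.65, adjusted p = 0.0393) and did not call SC against SG (-3.23, adjusted p = 0.0531). Within library set II the differences were -2.59 for SC against SG (4 and 3 libraries, exact permutation p = 0.229) and -3.48 for ST against SG (5 and 3 libraries, exact permutation p = 0.107). Within library set I they were -4.53 (2 and 3 libraries) and -4.60 (1 and 3 libraries), at sizes that cannot pass the threshold. Set II allows 35 arrangements for SC against SG, too few for a two-sided p under 0.05. It allows 56 for ST against SG, too few once adjusted over the 3 pooled comparisons. The sign was thus negative in both sets, and no exact test of SC or ST against SG within a set passed or could pass once adjusted. H19 was chosen with earlier results of these data known, so these p-values are not those of a gene chosen without them.

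Set against the other loci, the difference of H19 was far from the middle. The median over the 4117 loci was 0.57 for SC against SG and 0.55 for ST against SG, and 30.8% and 35.0% of loci were lower. With upper-quartile scaling these medians were 0.12 and 0.13 and H19 stood at -3.99 and -4.40, so its distance below the median was -3.80 and -4.19 unscaled and -4.11 and -4.53 scaled. Ordered from the largest fall, H19 was at position 3 for SC against SG, after Gm42687 (-3.62) and Gm47551 (-3.62), and at position 2 for ST against SG, after Gm47551 (-5.13), while scaling left it at positions 4 and 2. Gm42687 and Gm47551 are loci without a described role, named after their values were seen. This order is a description of these libraries, since both contrasts share the SG libraries.

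**Figure D4:**
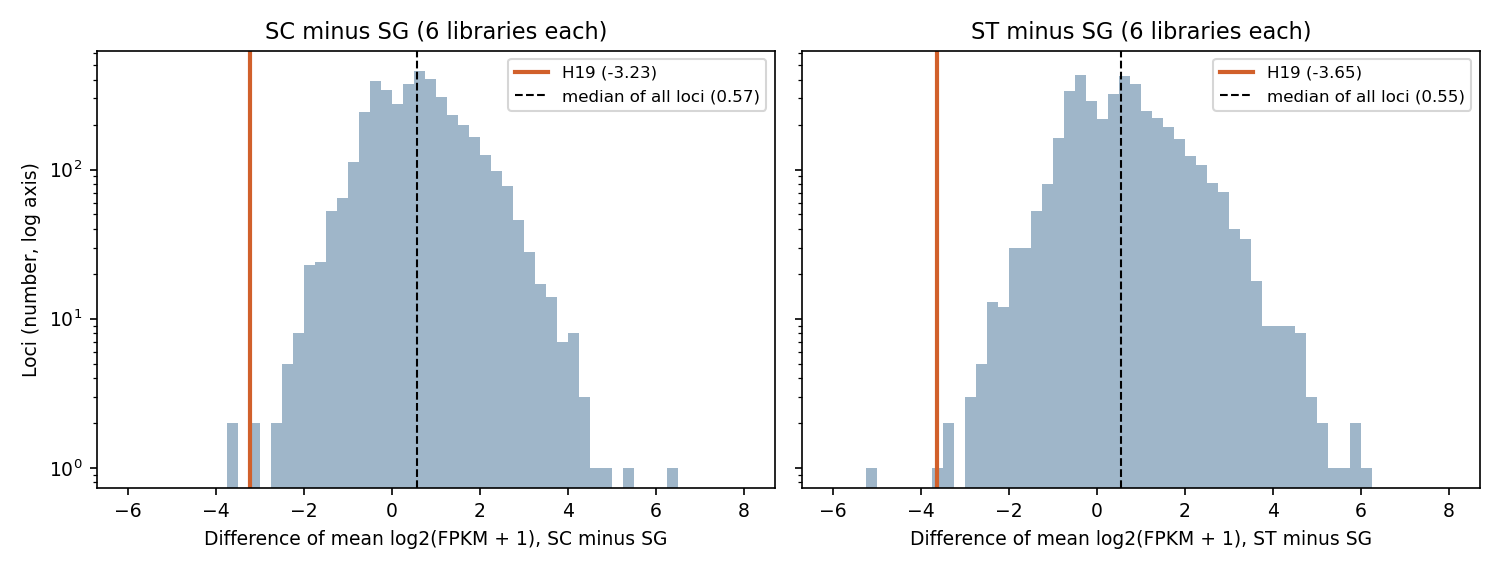
Differences of mean log2(FPKM + 1) over the 4117 loci for SC against SG (left) and ST against SG (right), 6 libraries each, with the number of loci on a log axis. The solid line marks H19, at -3.23 and -3.65, near the low end of each distribution, and the dashed line marks the median of all loci, at 0.57 and 0.55.

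Markers of other testis cells were looked at beside H19. None of the 23 coding markers listed for germ, Sertoli, Leydig, peritubular and blood cells had a row in the table used here, so the labelled types could be checked through noncoding loci alone. Gm2044, 1 of 2 loci listed for spermatogonia, stood at 8.81, 5.55 and 4.43 FPKM in priSG-A, at 13.5 to 16.3 FPKM in priSG-B and at 0.133 to 0.977 FPKM in pacSC. The plpSC libraries held 19.5 and 4.09 FPKM in replicates 1 and 2, and replicate 3 is listed at 0. The value of plpSC replicate 1 is the highest of the series, so Gm2044 does not mark the SG labels alone. In rST replicate 1 and elST replicate 1 it stood at 7.01 and 3.32 FPKM, against 0.175 FPKM or less in the other rST libraries and 0.427 FPKM or less in the other elST libraries. With Lncenc1, the other listed locus, the sum was 4.46 to 8.90 FPKM in priSG-A, 13.9 to 16.8 in priSG-B and 0.00922 to 19.5 in plpSC. It was 0.133 to 1.00 FPKM in pacSC, 0.0822 to 7.02 in rST and 0.0676 to 3.43 in elST.

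The library with the most H19, priSG-A replicate 1, also held the most Carmn, a noncoding gene of smooth muscle and vessel wall. Carmn stood at 17.3 FPKM there, against 2.46 and 2.32 FPKM in priSG-A replicates 2 and 3 and at most 3.39 FPKM elsewhere. Dnm3os, a noncoding gene of mesenchymal cells, was likewise highest there, at 1.72 FPKM against at most 0.708 FPKM elsewhere. The other 5 loci of the list with rows did not peak there: Hand2os1 and Hotair are listed at 0 in this library, and Fendrr (0.253 FPKM), Mir99ahg (16.8 FPKM) and Mir100hg (3.55 FPKM) had their highest values elsewhere. Of the 9 listed mesenchymal, peritubular or vessel loci 7 had rows, and their summed level was 13.2 to 39.7 FPKM in priSG-A, 5.19 to 5.47 in priSG-B and 10.9 to 20.4 in plpSC. In pacSC, rST and elST it was 7.47 to 46.3, 17.9 to 44.2 and 7.25 to 15.7 FPKM, most of it Mir99ahg in the highest libraries, so the sum of 39.7 FPKM in priSG-A replicate 1 was below those of pacSC replicate 3 and rST replicate 3. Carmn is listed at 0 in pacSC replicate 2 and elST replicate 3, and Hotair, another listed locus, in 7 libraries.

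Wt1os was the 1 of 2 listed Sertoli loci with a row. It is named after the Sertoli cell gene Wt1 but does not overlap it in GENCODE M21. Its level was 1.69 to 2.25 FPKM in priSG-A, 0.682 to 0.787 in priSG-B and 0.212 to 2.38 in plpSC. It stood at 0.134 to 0.377 FPKM in pacSC, 0.846 to 2.80 in rST and 0.159 to 2.08 in elST, and was at 0 in none. The blood loci Mir142hg and Mir155hg, 2 of 3 listed, summed to 0.0194 to 6.12 FPKM over the 18 libraries, with the highest sum in a pacSC library. What part somatic cells play in the H19 level was not tested.

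The loci whose pattern was most like that of H19 were taken by Pearson's r of log2(FPKM + 1) over the 18 libraries among 4116 other loci. The 8 with the highest r were Gm43126 (0.96), Gm42995 (0.95), Rian (0.95), Gm4425 (0.95), 2810457G06Rik (0.94), Gm42993 (0.94), Gm6277 (0.94) and Gm46339 (0.93). These are descriptions over 18 libraries that share sets and cell mix, and that fall into a high and a low cluster for H19, and r was not computed within these clusters. Within the 12 libraries of set II their r ran from 0.91 to 0.97, and without the 2 libraries farthest from the median of H19 (priSG-A replicates 1 and 2) from 0.91 to 0.97. Spearman's rho was 0.81 to 0.90. In all, 52 loci (1.26%) had r of 0.9 or more and 183 had r of -0.9 or less, with a median of -0.64.

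Gm43126 overlaps one end of Ccnd2, the gene of a cyclin that acts in dividing cells, on the other strand, and the reads of both cannot be told apart without strand. It stood at 22.6, 9.80 and 2.58 FPKM in priSG-A, with 10.1, 9.48 and 8.13 FPKM for priSG-B and 5.19, 3.56 and 0 FPKM for plpSC. The pacSC libraries held 0.177 to 0.414 FPKM, the rST libraries 3.58, 0 and 0 FPKM, and the elST libraries 3.35, 0 and 0.280 FPKM. Gm42995 and Gm42993 both lie inside Auts2 on the same strand, so they share a host gene and are not separate observations. The other most like loci besides Rian stayed at 4.01 FPKM or less in every library.

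At the other end were 1700008K24Rik (r = -0.96), Gm2762 (-0.95) and Gm20492 (-0.95). The lincRNA 1700008K24Rik is listed at 0 in priSG-A replicates 1 and 2 and stood at 232 FPKM in replicate 3. It stood at 0.387 to 1.78 FPKM in priSG-B, at 0.253, 0.574 and 362 FPKM in plpSC and at 266 to 813 FPKM in pacSC. In replicate 1 of rST and elST it stood at 27.6 and 24.8 FPKM, against 330 to 707 FPKM in their other libraries. The libraries low in H19 were the ones high in this locus, which follows from its choice by the lowest r.

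Of 27 listed imprinted genes, 11 had rows in the table, among them H19, and these hold 19 rows because Snhg14 stands on 9. Rian, a noncoding host of small nucleolar RNAs in the Dlk1-Dio3 domain of chromosome 12, was the third most like locus. The priSG-A libraries held 19.6, 16.5 and 2.27 FPKM of it, those of priSG-B 14.2 to 14.4 FPKM and those of plpSC 8.32, 12.4 and 2.28 FPKM. The later libraries held 3.14 to 4.41 FPKM (pacSC), 7.31, 2.96 and 2.95 FPKM (rST) and 13.9, 4.64 and 2.70 FPKM (elST). The 9 libraries with high H19 held 7.31 FPKM or more of Rian and the other 9 held 4.64 FPKM or less.

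Meg3, the noncoding gene next to Rian that is also read from the maternal chromosome, had r of 0.74 (rank 501). In priSG-B it stood at 1.85 to 2.24 FPKM, below its 11.6 and 6.66 FPKM in plpSC replicates 1 and 2, while H19 stood higher in priSG-B than in those libraries. Mirg, the microRNA host gene of the same domain, had r of -0.34, with its highest values of 4.36, 3.94 and 3.19 FPKM in pacSC replicate 3 and rST replicates 3 and 2. Members of this domain thus had r from -0.34 to 0.95 with H19.

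Airn, the paternally read antisense RNA of Igf2r, had r of 0.89, with 5.49, 3.06 and 1.03 FPKM in priSG-A and 0.275 to 0.598 FPKM in pacSC. Kcnq1ot1, the paternally read RNA of the domain next to H19 on chromosome 7, had r of 0.57 and stayed between 0.246 and 2.84 FPKM. Airn overlaps Igf2r and Kcnq1ot1 overlaps Kcnq1, each on the other strand. Without strand, their reads cannot be told from those of the coding genes. Peg13, a paternally read RNA of chromosome 15 (r = -0.33), stayed between 0.554 and 2.67 FPKM, and A330076H08Rik (r = 0.80) between 0.00976 and 1.28 FPKM. The 3 rows of Snhg14 that passed the filter had r of 0.60, -0.01 and 0.84.

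Besides H19, 10 imprinted rows passed the filter of 1 FPKM in 3 libraries. Their median log2 difference was -0.25 for SC against SG, with 7 of 10 lower, and -0.46 for ST against SG, with 8 of 10 lower, against medians of 0.57 and 0.55 over all loci and 30.8% and 35.0% of loci lower. Rows of Snhg14 share a gene, and rows of the Dlk1-Dio3 domain share a locus, so these counts are not over independent genes. A330076H08Rik reached 1 FPKM only in priSG-A replicates 1 and 2 and plpSC replicate 1. The Snhg14 row with r of 0.84 did so only in priSG-A replicate 2, priSG-B replicates 1 to 3 and plpSC replicate 2. Such rows passed the filter mainly through SG libraries, so their lower SC and ST levels are in part set by the filter.

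**Figure D5:**
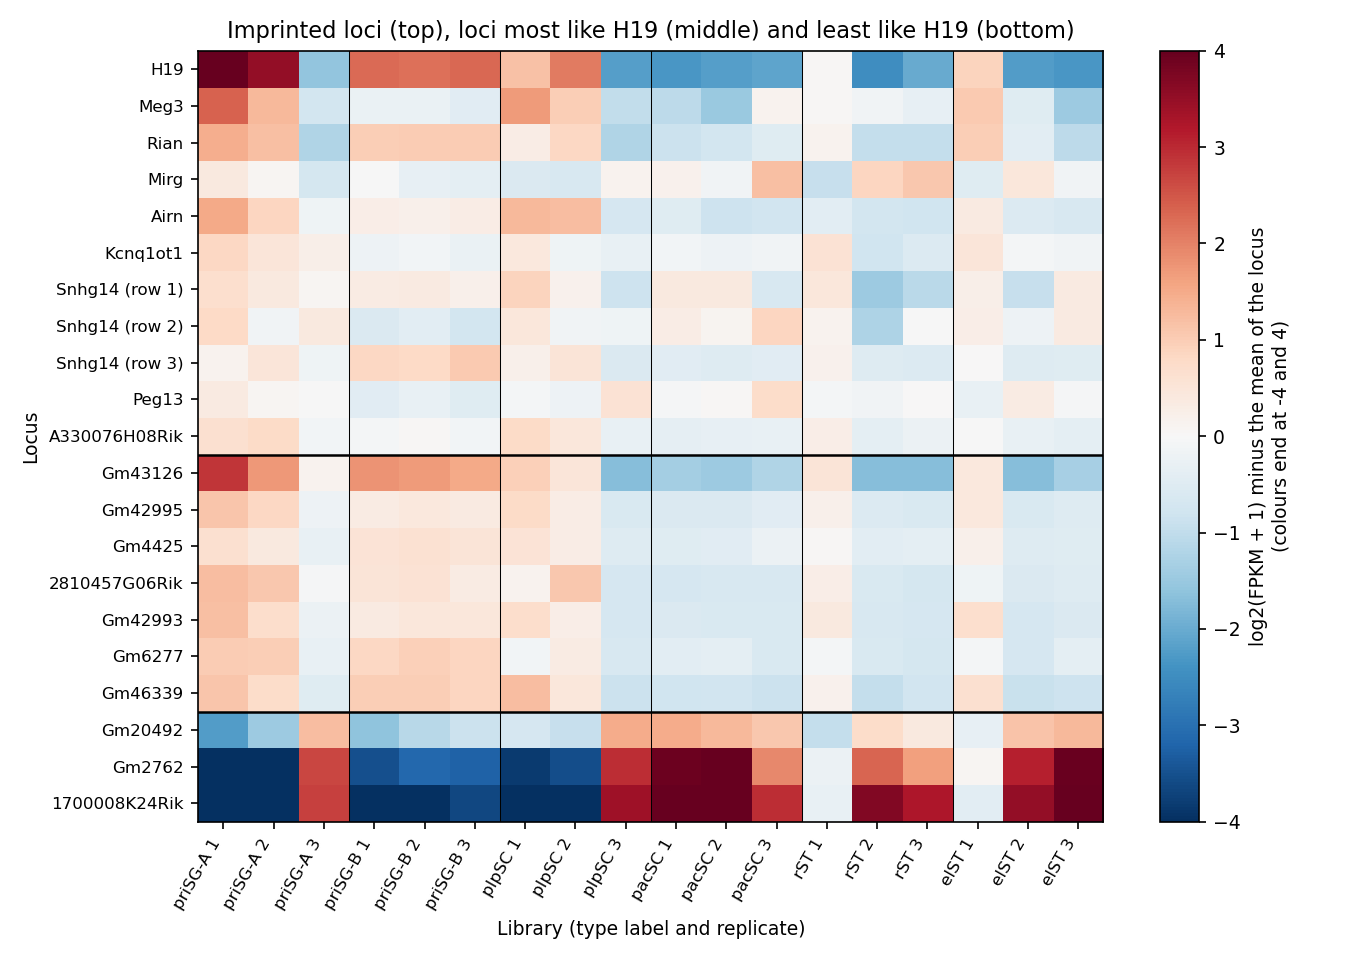
Log2(FPKM + 1) of imprinted loci (top block, H19 first), of the loci most like H19 (middle) and of those least like it (bottom), each minus the mean of the locus over the 18 libraries, with red above and blue below that mean and colours ending at -4 and 4. Rian is in the top block only. H19 spans the widest range of the top block, and replicate 3 of priSG-A and plpSC is coloured like pacSC in the H19 row, while replicate 1 of rST and elST is not.

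The loci nearest to H19 on chromosome 7 were faint. Nctc1, 16.9 kb away on the side toward Mrpl23, lies where enhancers of the locus are known, and reached at most 0.0673 FPKM. Gm33148, 13.6 kb away on the Igf2 side, reached at most 0.0178 FPKM. Igf2os, the RNA antisense to Igf2, 81.6 kb away, was faint too, at 0.251 to 0.260 FPKM in priSG-B, 0.178 and 0.182 FPKM in priSG-A replicates 1 and 2 and 0.0159 FPKM or less in pacSC. It did not follow H19 throughout. The plpSC replicates 1 and 2, high in H19, held 0.00628 and 0.0416 FPKM of Igf2os, and elST replicate 2, low in H19, held 0.174 FPKM. Igf2 itself had no row in the table used here, and without strand its reads may be counted with Igf2os, which it overlaps.

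Farther out, Gm45889, 285 kb away and without a described role, followed H19 in part (r = 0.89). It stood at 43.9, 19.5 and 6.52 FPKM in priSG-A, at 7.55 to 11.9 FPKM in priSG-B and at 33.9, 20.4 and 0.120 FPKM in plpSC, and between 0.147 and 0.208 FPKM in pacSC. In replicate 1 of rST and elST it stood at 19.2 and 8.79 FPKM, against 0.255 FPKM or less in their other libraries. Gm45630, which overlaps Mob2 on the same strand, stood at 0.0273 to 2.51 FPKM, while Gm32786, Gm6471 and Gm39117 reached at most 0.188, 0.0952 and 1.18 FPKM.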

How the data were processed

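RNA of 18 libraries (6 types, 3 each) was made with the Illumina TruSeq RNA kit, per the labels' protocols. The series' design text names duplicates, while 3 numbered libraries per type are labelled. The authors deposited FPKM per locus. HISAT2, StringTie and mm10 were used, per the submitters' processing notes, while annotation, filters, strand setting and FPKM denominator were not given in the sources used here. Of 13218 rows, 13191 matched GENCODE M21 by identifier and 13098 had its start and end.

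Computed here: log2(FPKM + 1), with loci at 1 FPKM or more in 3 libraries (4117), tested with limma 3.58.1 (R 4.3.3, trend and robust, 6 type coefficients, Benjamini-Hochberg over all loci, threshold 0.05). A fold change on this scale understates the change of low genes. Exact permutation tests, adjusted over the 3 pooled comparisons, used scipy 1.17.1. On values simulated for priSG-B against priSG-A over 4117 loci, limma recovered 54% of changes of 2 on the log2 scale and 84% of 4, with 2 false calls. The simulated noise was independent between libraries, with the same SD in all types of a locus. For H19 the SD was 0.04 in priSG-B and 3.45 in priSG-A, so these rates do not describe H19. The depth estimator was tested on simulated data, with errors up to 0.289% in depth and 2 bases in fragment length. Within a tolerance of 0.02, 98.4 to 99.5% of low values were whole.

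Library sets were divided at 100 FPKM of AY036118, a ribosomal RNA-derived locus. Same-numbered libraries deviated together, with every correlation over 0.1, in pacSC against plpSC (0.31 to 0.35) and elST against rST (0.13 to 0.85), as found in the data, since no label pairs them. H19, the lists and the tests were chosen with earlier results of these data known. Named loci were H19, the 8 most and 3 least like it, the 4 nearest on each side, the imprinted list and the cell type markers. Of these, Mir100hg, Fendrr and Hand2os1 are described for priSG-A replicate 1 and otherwise stand in the summed marker levels. The 6 rows of Snhg14 under the filter are not described.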

Additional observations from a re-analysis of the deposited data

Results flagged for a closer look

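H19 in priSG-A replicate 1, at 234 FPKM, stood far from the other 5 SG libraries, with a gap to the next library (82.4 FPKM) that made up 0.652 of the group's range in FPKM, above Dixon's critical value for 6 samples. On the log2(FPKM + 1) scale used for the tests the same gap was 0.227 of the range, and the gap below the lowest library, priSG-A replicate 3, was 0.575, both under the critical value. Of the 6 sets of values looked at (SG, SC and ST, each in FPKM and log2) this was the 1 so marked, and chance marks about 1 in 20. Of the 7 mesenchymal, peritubular or vessel loci with rows, Carmn and Dnm3os were also highest in this library, at 17.3 and 1.72 FPKM, while the other 5 were not and Hand2os1 and Hotair are listed at 0 there. Their part in it was not tested.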

How the results depend on the processing

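H19 stayed lower in SC and ST than in SG with the other pseudocount and both scalings, at an exact permutation adjusted p under 0.05. The same held without each library in turn (-4.0 to -2.68 for SC, -4.42 to -3.10 for ST). Without the 5 libraries that stand apart the differences were -3.39 and -5.33 and passed too. These 5 were named with values of 1700027A15Rik known, which runs opposite to H19, so that fit is not independent of the outcome. Within library set II the differences were -2.59 and -3.48 and within set I -4.53 and -4.60, with adjusted p of 0.321 to 0.375, where sizes are small. For ST against SC the range without each library was -0.87 to 0.18. In priSG-B against priSG-A the difference was 0.12 with a pseudocount of 0.1, 0.33 with upper-quartile scaling, 0.14 with quantile normalization and 0.85 with library set as a term, against -2.01 without the 5 libraries and -2.01 to 1.28 without each library in turn. Without the 5 libraries, pacSC against plpSC gave -3.89, elST against rST -0.031 and the F test 84.5 (limma adjusted p = 6.81e-07). Without each library in turn, plpSC against priSG-B ranged from -2.78 to -0.64, pacSC against plpSC from -3.84 to -1.70, rST against pacSC from -0.032 to 1.23, elST against rST from -0.79 to 1.03 and F from 2.83 to 8.74. For limma, ST against SC ranged from -1.06 to 0.014 without each library in turn, the highest without plpSC replicate 2. It was called without the 5 libraries (-1.94, limma adjusted p = 0.000354), where 3019 of the 4117 loci were called. The cause was not tested.

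With the replicate number as a block, the pooled differences of -3.23 and -3.65 both had an exact permutation adjusted p of 0.0139, and in limma the block turned ST against SG into a call (adjusted p = 0.0393) and changed no other H19 call. Counts of called loci moved more: the block called 1666 loci in ST against SG and 2015 in pacSC against priSG-B, against 21 and 887 without it. With a pseudocount of 0.1 the counts were 0 for SC and ST against SG (15 and 21 in the reported fit), 1 for priSG-B against priSG-A and for the F test (28 each), 2 for plpSC against priSG-B (52) and 1559 for pacSC against priSG-B. Without the 5 libraries they were 2284, 3608, 448, 3923, 477 and 2948 in that order. Upper-quartile scaling turned the pacSC against priSG-B calls to 346 higher and 519 lower, against 665 and 222. The limma call of ST against SG also appeared without priSG-A replicate 3, rST replicate 1 or elST replicate 1, and without the 5 libraries both ST against SG (-5.53, adjusted p = 6.42e-08) and SC against SG (-3.59, adjusted p = 8.82e-06) were called. The call of pacSC against priSG-B was lost without the filter on low values (adjusted p = 0.0880). Depth did not limit detection of H19, and with 3 libraries per type the spread between libraries limits the comparisons.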
